A study of Mus musculus with 24 samples.

Results

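The genes described here mark the trophoblast, the embryonic lineage that builds the placenta, and were chosen as the probe sets that name exactly 1 of 34 listed genes. Of the 34 genes, 33 were measured, each by 1 probe set, among 19505 named genes on the arrays; Gcm1 was not analysed here. They fall into 5 classes by textbook role: 8 stem cell and early regulators, 5 broad trophoblast genes, 11 genes of spongiotrophoblast and glycogen cells, 5 of giant cells and, without Gcm1, 4 of labyrinth and syncytiotrophoblast.

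The study compared grandoffspring of control and of obese grandfathers, the latter labelled SL, in outbred ICR-CD1 mice. The labels do not spell out SL. There were 6 groups of 4 samples, with 1 array per sample. At embryonic day 7.5 (ED7.5) and at embryonic day 14.5 (ED14.5) the samples are labelled whole embryo, with a control group and an SL group at each age. The remaining control and SL groups are liver at postnatal day 7.5 (PD7.5). All animals shared the strain, and the labels name no transgene or other treatment. Nothing in the labels ties a sample to its own litter or grandfather, so p-values measure only the spread between these samples, which may be in part technical. In bulk samples such as these, fewer cells of a type and less RNA per cell cannot be told apart.

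The mouse trophoblast first arises as the outer layer of the blastocyst. Stem cells next to the embryo proper are kept dividing by FGF signals and by a circuit of transcription factors that includes Cdx2, Eomes, Elf5, Esrrb and Tfap2c. Their descendants form the invasive giant cells, the spongiotrophoblast with its glycogen cells, and the labyrinth, where fused syncytiotrophoblast separates maternal from fetal blood. At the younger age the implanted embryo lies within the decidua, the maternal uterine lining. By the older age the placenta is a separate organ.

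Many placental genes lie in clusters in the genome, and 4 promoters from such clusters are shown. Prl8a9 and Prl5a1 were both above background on all 8 ED7.5 arrays and share a run of letters, and Tpbpa and Ctsq lie in 1 cluster, with Tpbpa above background on 6 of the 8 arrays and Ctsq on none. They are the 250 bases before the annotated start, from RefSeq on GRCm38.p6, 5′ to 3′ on the strand of the gene. Of the 33 measured members, 21 had an entry. Letters in capitals match 1 of 8 short motifs searched on both strands: TATAAA for the TATA box, GCCNNNGGC for AP-2 factors such as Tfap2c, GGAATG for TEAD factors such as Tead4, CCGGAA for ETS factors, GGTGTG for T-box factors, AAGGTCA for estrogen-related receptors such as Esrrb, TTTATG for Cdx factors and AGATAA for GATA factors. No match overlaps another in the windows shown, and a match is a description of letters only.
Prl8a9 (chr13:27564607-27564856, minus strand): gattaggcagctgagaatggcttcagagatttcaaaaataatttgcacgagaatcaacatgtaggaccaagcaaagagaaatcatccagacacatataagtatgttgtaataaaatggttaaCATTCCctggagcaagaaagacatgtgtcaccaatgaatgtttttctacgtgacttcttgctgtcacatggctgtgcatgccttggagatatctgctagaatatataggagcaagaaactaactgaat
Prl5a1 (chr13:28142234-28142483, plus strand): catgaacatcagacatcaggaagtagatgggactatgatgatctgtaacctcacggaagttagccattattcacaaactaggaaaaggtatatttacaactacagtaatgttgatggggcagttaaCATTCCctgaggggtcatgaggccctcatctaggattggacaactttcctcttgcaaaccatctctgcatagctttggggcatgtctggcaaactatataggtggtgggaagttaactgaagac
Tpbpa (chr13:60941937-60942186, minus strand): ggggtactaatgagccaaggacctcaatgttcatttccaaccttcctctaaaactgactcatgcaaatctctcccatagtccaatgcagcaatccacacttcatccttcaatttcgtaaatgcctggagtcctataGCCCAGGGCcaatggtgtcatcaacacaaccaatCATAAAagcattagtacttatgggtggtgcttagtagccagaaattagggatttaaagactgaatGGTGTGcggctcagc
Ctsq (chr13:61040598-61040847, minus strand): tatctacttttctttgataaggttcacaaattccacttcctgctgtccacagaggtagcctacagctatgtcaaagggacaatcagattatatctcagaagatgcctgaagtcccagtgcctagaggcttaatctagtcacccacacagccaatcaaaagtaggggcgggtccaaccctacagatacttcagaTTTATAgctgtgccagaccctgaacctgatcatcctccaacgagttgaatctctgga

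The promoters of Prl8a9 and Prl5a1, 2 placental hormones of the prolactin family, held the TEAD letters at nearly the same place, 128 and 124 bases before the start. GGAATG occurred in 12.6% of all 32851 promoters in the table and in 3 of the 21 member promoters, those of Elf5, Prl8a9 and Prl5a1. Around it the pair shared 14 letters, gttaaCATTCCctg. That run stood in the promoters of 4 genes in all, and each was a gene of the prolactin family: Prl8a9, Prl5a1, Prl6a1 and Prl8a1. The first pair define the run, so their match is no finding. Prl8a9, Prl5a1 and Prl6a1 were above background on all 8 ED7.5 arrays, and Prl8a1 on none.

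Tpbpa, the defining marker of spongiotrophoblast, lies beside the placental cathepsins on chromosome 13 in GRCm38.p6. Its promoter held the AP-2 letters, which 13.7% of all promoters held, with the Cdx letters (10.8%) and the T-box letters (16.3%). The Cdx letters stood in 6 of the 21 member promoters: those of Psg17, Psg18, Psg21, Psg23, Fgfr2 and Tpbpa. The Psg windows among them were 76.6% to 96.1% identical in pairs, so their matches are not independent. The promoter of Ctsq held the letters TATAAA on the opposite strand only, 57 bases before the start. On either strand, 12.4% of all promoters held these letters. Between the Tpbpa window and those of the 4 cathepsin members, identity in a pairwise alignment ran from 52.9% to 59.1%, and between Psg21 and Psg23 it was 96.1%.

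The values are log2 summaries per probe set, and a difference of 1 is a doubling. Each array carries 5222 control probes to introns, and their 75th percentile served as its background; a probe set at or under it is called not above background. Levels of different probe sets cannot be set against each other. On each array between 48.3% and 64.1% of the named genes were above background, and the number of arrays limits the precision. The array of ED7.5 control replicate 2 stood apart from the other 7 ED7.5 arrays, with a background of 6.53 against 5.05 to 5.77, and 12 members above background there against 15 to 19. Among the ED14.5 arrays the background of control replicate 1 was the highest, at 6.51.

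Marker genes showed which other tissues the samples held. The decidual list had a mean of 11.24 to 11.40 on the 8 ED7.5 arrays, and all 19 of its genes were above background on every SL array (18 on every control array). All 5 measured markers of uterine natural killer cells were above background on each of the 8 as well. Of the 10 epiblast genes, the defining genes of the embryo proper at this age, none was above background on every ED7.5 array of either group, and the list mean was 4.12 to 4.82. On the ED14.5 arrays all 11 hepatocyte and all 6 measured erythroid genes were above background, with list means of 12.73 to 12.81 and 11.86 to 12.06.

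At ED7.5 the trophoblast genes on view were mainly early regulators, a few secreted placental proteins and Hand1. Above background on every array were 12 of the 33 members in the control group and 13 in the SL group. On all 8 ED7.5 arrays together, 12 of the 33 members were above background, beside 9524 of all 19505 genes. The members were thus detected no more often than genes at large. At ED14.5 the counts were 4 and 3, and in liver 5 and 5. On single arrays of these groups 48.3% to 58.4% of all genes were above background. With the 90th percentile of the control probes as background, the count was 6 in ED7.5 controls, 2 and 1 at ED14.5 and 3 in liver SL. In ED7.5 SL and liver control the count moved proportionally less. That percentile was 7.52 on ED7.5 control replicate 2, against 5.92 to 6.71 on the other ED7.5 arrays. Eomes, Plac1, Pcdh12, Psg22, Prl5a1 and Hand1 were not above 7.52 on that array. By class, ED7.5 controls had 5 of 8 stem cell and early regulators, 2 of 5 broad genes, 4 of 11 spongiotrophoblast and glycogen cell genes, 1 of 5 giant cell genes and none of the 4 labyrinth genes above background on every array. In liver, which holds no trophoblast, the 5 were Ets2, Fgfr2, Rhox9, Pcdh12 and Gjb2 in both arms. These genes are known in other tissues too, among them Pcdh12 in endothelium and Gjb2 in hepatocytes.

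**Figure D1:**
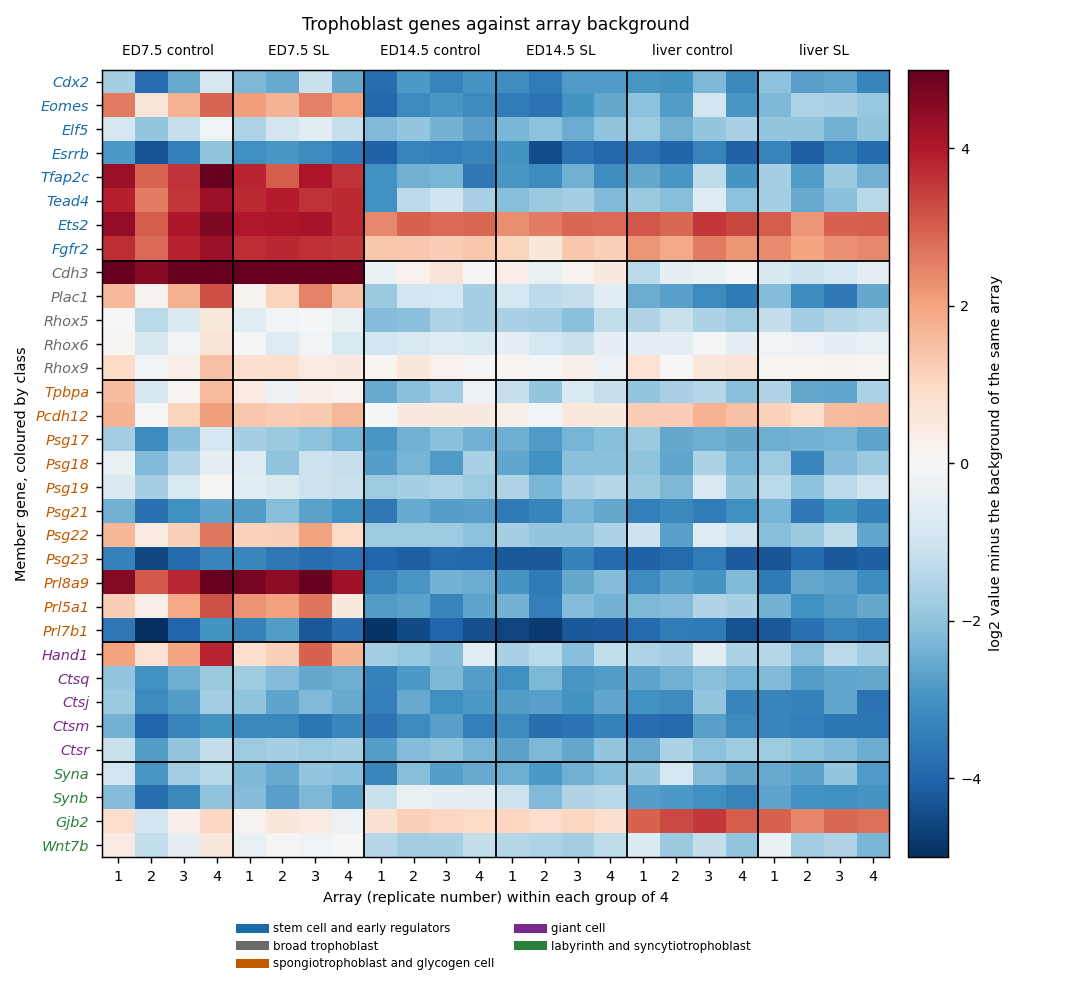
Each cell is the log2 value of 1 member (row) on 1 array (column) minus the background of that array, with colours saturating at 5 above and 5 below; arrays are grouped by the 6 groups and gene names are coloured by class. Red cells lie mainly in the 8 ED7.5 columns, where 12 members are above background on every array, and Ets2 and Fgfr2 stay red in all 24 columns.

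Among the early regulators the detected members at ED7.5 were Eomes, Tfap2c, Tead4, Ets2 and Fgfr2. Tfap2c, an AP-2 transcription factor of trophoblast stem cells that also acts in other epithelia, had values of 9.58, 9.45, 9.37 and 10.08 in controls and 9.40, 8.54, 9.67 and 9.27 in SL. Eomes, a T-box factor needed for trophoblast stem cells and also known in natural killer cells, had 7.87, 7.15, 7.51 and 7.97 in controls and 7.71, 7.19, 8.16 and 7.71 in SL. For both genes the arms overlapped. Tead4, which acts upstream of Cdx2 in the first trophoblast cells, was tighter: 9.16, 9.11, 9.32 and 9.33 against 9.33, 9.43, 9.25 and 9.36. Cdx2, Elf5 and Esrrb, the remaining core stem cell factors, were not above background on any of the 24 arrays. Stem cell genes were thus divided between those above background and those below it on the same arrays. On ED7.5 control replicate 2 Eomes (7.15) was above the background of 6.53 but not above the 90th percentile, 7.52.

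Of the broad genes, Cdh3, the P-cadherin of placenta and decidua, had values of 10.90, 11.06, 11.22 and 10.99 in ED7.5 controls and 10.81 to 10.95 in SL. Plac1, a placental protein made by all trophoblast cells, had 6.86, 6.72, 7.54 and 8.27 in controls and 5.80, 6.61, 8.12 and 7.11 in SL. The 3 Rhox homeobox genes, neighbours on the X chromosome, lay near background: Rhox5 at 5.06 to 5.58 and Rhox6 at 4.85 to 5.74 over the 8 arrays. Rhox9 lay at 6.06 to 6.53 there and between 5.70 and 6.72 on the other 16 arrays, ranges that overlap.

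Spongiotrophoblast and glycogen cell genes of the same cluster differed in detection. In the prolactin cluster, Prl8a9 had values of 9.84, 9.58, 9.52 and 10.32 in ED7.5 controls and 10.36, 9.99, 10.68 and 9.89 in SL. Prl5a1 had 6.47, 6.87, 7.72 and 8.21 in controls and 7.86, 7.53, 8.32 and 6.12 in SL. Both were above background on all 8 arrays, while Prl7b1 of the same cluster was at 1.42 to 2.72 and never above it. Between Prl8a9 and Prl5a1 the annotation lists 11 protein-coding genes with the 2 ends included, and those 2 were the ones above background on all 8 arrays. Of the pregnancy-specific glycoproteins, secreted proteins encoded by a cluster on chromosome 7, Psg22 had 6.93, 6.93, 6.98 and 7.69 in controls and 6.77, 6.67, 7.65 and 6.65 in SL. Psg17, Psg18, Psg21 and Psg23 were above background on none of the 8, and Psg19 on 1. Genes of such families are near copies of each other, and a probe set may take up RNA of a neighbour.

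Tpbpa had values of 6.81, 5.69, 5.87 and 6.62 in ED7.5 controls and 6.04, 5.21, 5.90 and 5.81 in SL, and 3 of 4 arrays in each arm were above background. Pcdh12, a protocadherin of glycogen cells and endothelium, was above background on all 8 arrays, at 6.55 to 7.26. The mean of the 6 endothelial markers was 9.78 to 10.28 on these arrays, and their part in the Pcdh12 signal was not tested.

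Of the 5 giant cell members, Hand1 alone was above background on the ED7.5 arrays. This basic helix-loop-helix factor drives giant cell formation and is also active in extraembryonic mesoderm and the heart. It had values of 7.29, 7.26, 7.72 and 8.85 in ED7.5 controls and 6.45, 6.67, 8.60 and 7.35 in SL. The arms overlapped over most of their range. The 4 cathepsins Ctsq, Ctsj, Ctsm and Ctsr, proteases of placental giant cells and labyrinth, lay between 2.04 and 4.15 on the ED7.5 arrays and were not above background on any of the 24 arrays.

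Labyrinth genes were near or below background at ED7.5. Gjb2, the connexin 26 that joins the syncytiotrophoblast layers, had 6.12, 5.57, 6.03 and 6.10 in controls and 5.78, 6.06, 6.04 and 5.35 in SL, with 3 of 4 arrays above background in each arm. Wnt7b, a Wnt ligand of the chorion, had 5.67, 5.30, 5.34 and 5.62 in controls and 5.23 to 5.67 in SL. Syna and Synb, the syncytins that fuse trophoblast cells, were below background on all 24 arrays.

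The members differed in how far they varied between arrays of 1 group at ED7.5. In controls the standard deviation (SD, n = 4) was 0.713 for Plac1, 0.791 for Prl5a1 and 0.742 for Hand1, against a median of 0.159 over the 9524 genes above background on all 8 arrays. In SL it was 0.968, 0.952 and 0.969 for the same genes against a median of 0.126. Tead4 (0.115 and 0.0728) and Cdh3 (0.133 and 0.0574) were below these medians in both arms. The widest members therefore came from the broad, spongiotrophoblast and giant cell classes, and the narrowest from the stem cell and broad classes. They also differed in level. Control means were 7.35 for Plac1, 7.32 for Prl5a1 and 7.78 for Hand1, nearer background than Tead4 (9.23) and Cdh3 (11.04). Pcdh12, at 6.88, had an SD of 0.243 in controls. The part of level in these spreads was not tested.

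The highest values of the members fell mostly on 1 array of each arm. In the control arm, replicate 4 was the highest of the 4 arrays for 9 of the 12 members that were above background on all 8, and for none the lowest. In the SL arm, replicate 3 was the highest for 8 of the 12. Over the 9524 genes the same arrays were the highest for 29.5% and 28.6%. Eomes, Tfap2c, Plac1, Psg22, Prl8a9, Prl5a1 and Hand1 peaked on this pair of arrays in both arms. Of 13 other trophoblast regulators above background on all 8 arrays, the same pair was highest for 2 and 3 (15.4% and 23.1%). Control replicate 3 was highest for 6 of them. Of 9 imprinted and placental growth genes above background on all 8, the pair was highest for 3 and 6 (33.3% and 66.7%). The mean of 17 placental prolactins that are not members was 6.03 on control replicate 4 and 5.83 on SL replicate 3. On the other 6 arrays it was 4.58 to 5.16. Not all of these genes peaked there. Prl6a1, above background on all 8 arrays, was highest on replicate 2 of each arm (6.97 and 7.44). Prl7a2 was highest on replicate 1 of each arm (6.32 and 7.25). Others, such as Prl8a6 and Prl8a8, were above background on none of the 8.

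Cases of that list that did peak on this pair of arrays were Prl3d3 and Prl2c3, hormones of giant cells, chosen after their values were seen. Prl3d3 had 7.33, 6.87, 6.92 and 8.59 in controls and 6.33, 6.20, 8.13 and 7.28 in SL. Prl2c3 had 5.95, 6.59, 7.04 and 8.64 against 5.87, 5.15, 8.46 and 5.88. Both peak on the same pair of arrays as Hand1. Lists of other cell types differed in whether they peaked there. On control replicate 4 the means of the epiblast (4.82), endoderm (7.31), endothelial (10.28), uterine natural killer (11.20) and hepatocyte (5.81) lists were the highest of the control arm, and 4 of 6 endothelial and 4 of 5 natural killer genes were highest there. On SL replicate 3 the epiblast (4.71), endoderm (7.24) and endothelial (10.14) means were the highest of the SL arm. The natural killer and hepatocyte means were not. The endothelial mean on SL replicate 1 was close, at 10.13. Of the genes above background on all 8 arrays, 2 of 6 endothelial and 2 of 5 endoderm genes were highest on SL replicate 3. The epiblast mean lay below the background of that array. The decidual mean was 11.27 on control replicate 4, the lowest of its arm, and 11.39 on SL replicate 3. On control replicate 4 the peaks were therefore not limited to trophoblast genes. On SL replicate 3 some lists of other cell types also had the highest mean of their arm. Control replicate 4 also had the lowest background of the 8 arrays, 5.05, while SL replicate 3 at 5.64 was within the range of its arm, 5.50 to 5.64. The part of background or of tissue content in these peaks was not tested.

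**Figure D2:**
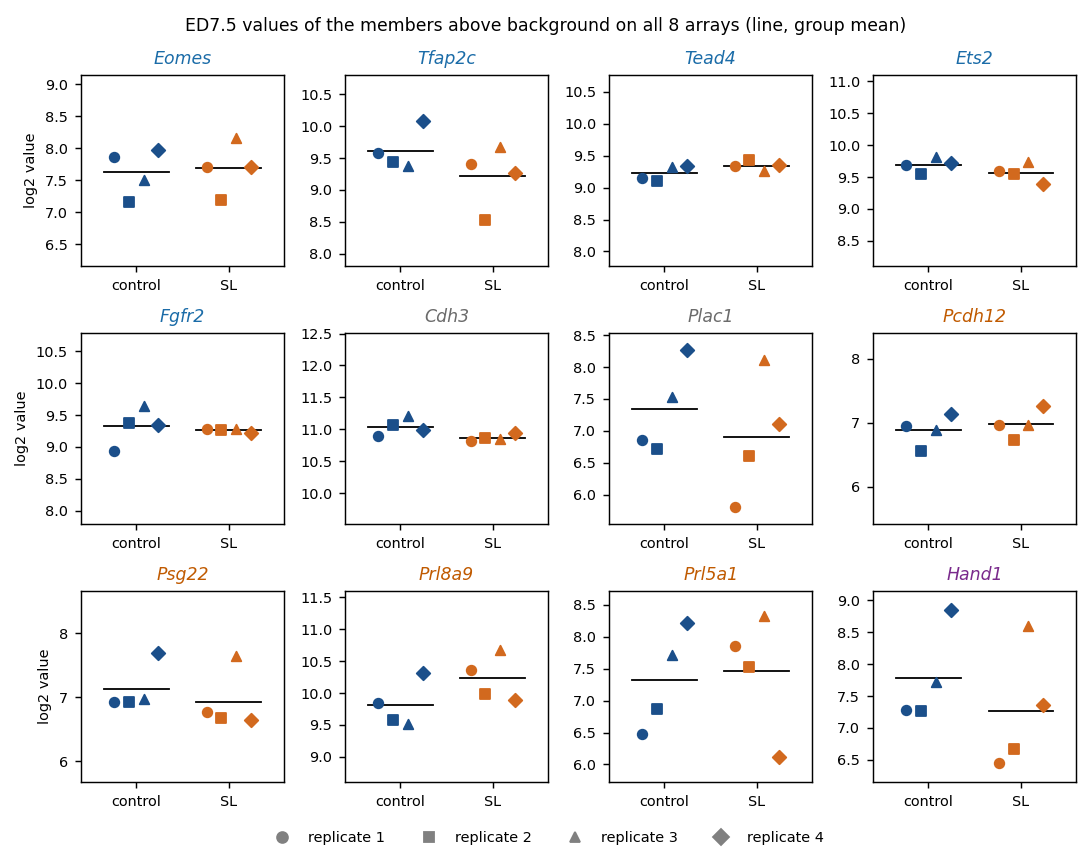
Log2 values (y axis, 3 units high in every panel) of the 12 members above background on all 8 ED7.5 arrays, with the control and SL arms on the x axis, a symbol for each replicate and a line at each group mean. Control replicate 4 (diamond) and SL replicate 3 (triangle) are the highest of their arms for Eomes, Tfap2c, Plac1, Psg22, Prl8a9, Prl5a1 and Hand1, while Tead4 and Cdh3 hardly spread.

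Between ED7.5 and ED14.5 most of the trophoblast genes that changed fell, in both arms. In controls 21 of the 33 members passed an adjusted p of 0.05 (limma, Benjamini-Hochberg over all 19505 genes), which is 63.6% of them against 51.9% of all genes. Of these 21, 18 were lower at ED14.5, 54.5% of the members against 26.3% of all genes, and 3 were higher (25.6% of all genes). In SL, whose arrays are not shared with the controls, 18 members passed, against 53.6% of all genes. There 16 were lower (27.1% of all genes) and 2 higher (26.4%). Groups did not overlap for 18 members in controls (49.4% of all genes) and for 16 in SL (51.2%). At an unadjusted p below 0.05 the members numbered 22 in controls (56.9% of all genes) and 20 in SL (58.1%). All 18 members called in SL were called in controls too, and none had the opposite direction. The median difference of the members was -0.56 in controls and -0.60 in SL, against 0.03 and 0.01 over all genes. Markers of other tissues changed with the age: the decidual list fell in 19 of 19 genes, the uterine natural killer list in 5 of 5, and hepatocyte (11 of 11) and erythroid genes (6 of 6) rose. Age and tissue content cannot be told apart in this comparison.

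The stem cell and early regulators had the lowest class median, a difference of -1.33 in controls and -1.47 in SL and 6 of 8 members called lower in each. Tfap2c fell by 6.32 (SE 0.280, adjusted p = 2.67e-08, limma) in controls and by 6.03 (SE 0.241) in SL. It was not above background on any ED14.5 array, which bounds the fall at 11.2-fold at least in controls and at least 8.75-fold in SL. Such bounds set the mean of the bright group against the higher of background and measured value on each dim array. Tead4 fell by 4.83 (SE 0.277) and by 5.23 (SE 0.148), at least 8.57-fold and 9.52-fold lower. Eomes fell by 4.80 (SE 0.192) and by 4.79 (SE 0.237), at least 2.82-fold and 3.03-fold lower. No value of these 3 genes at ED14.5 reached any value at ED7.5.

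Fgfr2 and Ets2 also fell but stayed above background at every age. Fgfr2, the receptor through which FGF4 keeps trophoblast stem cells dividing, went from 9.32 ± 0.285 to 7.46 ± 0.293 in controls (SD, n = 4) and from 9.26 ± 0.0315 to 7.14 ± 0.209 in SL. Ets2, a transcription factor of trophoblast and many other cells, went from 9.69 ± 0.114 to 8.91 ± 0.0301 and from 9.57 ± 0.145 to 8.75 ± 0.215. Elf5, called lower in both arms, lay below background on every array, so its change has no fold. Its call in SL (adjusted p = 0.0277) was lost without ED7.5 SL replicate 2, 3 or 4 or without ED14.5 SL replicate 1 or 3, with adjusted p of 0.0502 to 0.0764. Cdx2 passed in controls when ED7.5 control replicate 2 was left out, with a difference of -0.80 and an adjusted p of 0.0178.

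Among the broad genes Cdh3, Plac1 and Rhox5 fell in both arms, with class medians of -1.02 and -0.89. Cdh3 fell by 4.77 (SE 0.147) in controls and by 4.62 (SE 0.131) in SL, from 11.04 ± 0.133 to 6.27 ± 0.270 in controls. Decidual cells carry Cdh3 as well, and their part in this fall was not tested. Plac1 fell by 2.55 (SE 0.328) and by 1.79 (SE 0.411), at least 2.33-fold and 1.76-fold lower. Rhox6 and Rhox9 did not pass, with differences of -0.26 and 0.09 in controls.

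In the spongiotrophoblast and glycogen cell class the median was -0.46 in controls and -0.60 in SL. Prl8a9 fell by 6.46 (SE 0.197, adjusted p = 2.39e-09, limma) and by 6.93 (SE 0.248), at least 12.9-fold and 17.6-fold lower. Prl5a1 fell by 4.04 (SE 0.360) and by 3.96 (SE 0.432), at least 2.28-fold and 2.58-fold lower, and Psg22 by 2.88 (SE 0.212) and by 2.62 (SE 0.220), at least 2.00-fold and 1.79-fold lower. At ED14.5 none of the 3 was above background on any array. Tpbpa fell by 1.78 (SE 0.401) in controls, and by 0.89 (SE 0.225) in SL. In both arms its groups overlapped: the lowest ED7.5 and the highest ED14.5 value were both 5.69 in controls, and 5.21 and 5.27 in SL. Pcdh12 fell by 0.42 in controls (adjusted p = 0.0202), a call lost without ED7.5 control replicate 1 (adjusted p = 0.0521) or replicate 4 (0.0523), and by 0.60 in SL (adjusted p = 0.00389). The endothelial list fell in the same comparison in 6 of 6 genes, and its part was not tested.

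The remaining Psg members lay below background, but for Psg19 on 1 ED7.5 array, so their calls carry no fold. In controls Psg18 and Psg19 were called lower and Psg21 higher. The Psg18 call was lost without ED7.5 control replicate 1 (adjusted p = 0.0578), and that of Psg19 without ED7.5 control replicate 2, 3 or 4 or ED14.5 control replicate 2, 3 or 4, with adjusted p of 0.0540 to 0.0913. In SL none of the 3 passed, though Psg18 did without ED7.5 SL replicate 2, at -1.04 with an adjusted p of 0.00176. Prl7b1 passed between these ages only in SL and without ED7.5 SL replicate 3 (-0.60, adjusted p = 0.0365).

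Of the giant cell genes Hand1 fell by 3.23 (SE 0.413, adjusted p = 7.52e-05, limma) in controls and by 2.76 (SE 0.437, adjusted p = 0.000408) in SL, at least 3.14-fold and 2.26-fold lower. Its ED14.5 values were 4.77, 4.08, 3.89 and 5.46 in controls and 4.46, 4.94, 3.88 and 4.74 in SL, below every ED7.5 value. The 4 cathepsins did not pass in either arm, apart from Ctsm in SL without ED14.5 SL replicate 3 (0.42, adjusted p = 0.0366), below background throughout. With 4 of 5 members below background at both ages, the class median of -0.08 and -0.03 says little of Hand1.

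Members that rose in both arms were both of the labyrinth class, Gjb2 and Synb. Gjb2 rose by 1.17 (SE 0.141, adjusted p = 4.84e-05, limma) in controls and by 1.25 (SE 0.166, adjusted p = 0.000122) in SL. Its ED14.5 values were 7.28, 7.16, 7.08 and 7.002 in controls and 7.17, 7.15, 7.08 and 6.84 in SL, all above background and above every ED7.5 value. Hepatocytes also make Gjb2, and the hepatocyte list rose in the same comparison; its part was not tested. Wnt7b fell by 0.85 and by 0.87 and was below background on all 8 ED14.5 arrays.

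Synb, the other syncytin, was measured below background throughout. Its values were 3.08, 2.75, 2.53 and 3.03 in ED7.5 controls and 5.38, 5.61, 5.64 and 5.56 in ED14.5 controls, a difference of 2.70 (SE 0.140, adjusted p = 8.07e-08, limma) without overlap. In SL the values were 3.44, 2.78, 3.39 and 2.96 at ED7.5 and 5.02, 4.09, 4.51 and 4.59 at ED14.5, a difference of 1.41 (SE 0.215, adjusted p = 0.000322). All 24 values lay below the background of their array, so no fold is given and the level it stands for is uncertain. Syna did not pass in either arm, at -0.44 and 0.24, except in controls without ED7.5 control replicate 2 (-0.53, adjusted p = 0.0458) or without ED14.5 control replicate 2 (-0.56, adjusted p = 0.0306), or with array weights (-0.48, adjusted p = 0.0496).

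**Figure D3:**
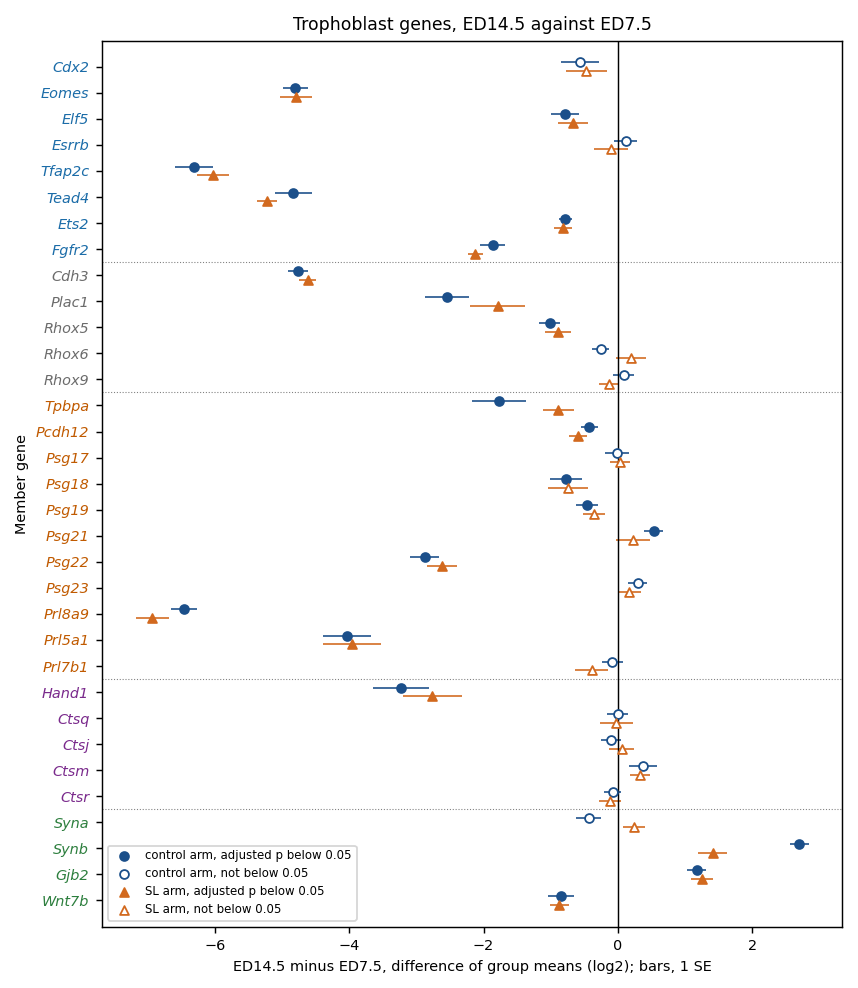
Difference of group means between ED14.5 and ED7.5 on the log2 scale (x axis) for each of the 33 members (y axis, coloured by class), with circles for the control arm, triangles for the SL arm and bars of 1 standard error; filled symbols have an adjusted p below 0.05. Prl8a9 and Tfap2c lie farthest to the left in both arms, the 4 cathepsins lie near 0, and Synb and Gjb2 lie to the right.

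Other placental genes, listed apart from the members, differed in balance from list to list, beside 26.3% lower and 25.6% higher among all genes. In controls 12 of 17 further placental prolactins were lower at ED14.5 and none higher. Prl3d3 (-4.86) and Prl3d2 (-4.54) fell furthest, at least 2.46-fold and 2.05-fold, and neither was above background at ED14.5. Of 5 further placental cathepsins Cts7 (-2.98) and Cts8 (-2.45) were lower. Cts7 was above background on all 8 ED7.5 arrays, the only gene of the 8 measured between Tpbpa and Ctsm of which that holds. Of 15 further glycoprotein and Ceacam genes 4 were lower, led by Psg29 (-3.97) and Ceacam9 (-2.10). At ED7.5 both Cts8 and Ceacam9 were above background on control replicate 4 only. The 2 that were higher, Ceacam3 (0.45) and Ceacam13 (0.40), lay below background on all 8 control arrays of both ages.

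Among 21 further trophoblast regulators 10 were lower and 3 higher, with Krt19 (-4.46), a keratin of trophoblast and other epithelia, and Gata2 (-3.45) at one end and Krt8 (2.23) and Gab1 (2.13) at the other. Of 12 imprinted and placental growth genes 7 were higher, led by Slc38a4 (4.57) and Igf2 (4.16), and 4 lower, led by Sct (-3.60) and Gjb5 (-3.40), a connexin of spongiotrophoblast. In SL the counts for these 5 lists were 13, 2, 4, 11 and 4 lower and 0, 0, 0, 5 and 7 higher, in the same order. The hepatocyte list also rose between these ages, and its part in the rises of Slc38a4 and Igf2 was not tested.

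Between ED14.5 and liver the changes went in both directions. In controls 10 of 33 passed (30.3%, against 45.2% of all genes), 5 higher in liver and 5 lower (20.5% and 24.6% of all genes). All 10 had an unadjusted p below 0.05, as did no other member (50.8% of all genes), and 7 had groups without overlap (43.7%). This comparison shares the ED14.5 controls with the comparison of the ages. Higher in liver were Gjb2 by 1.98 (SE 0.125), Pcdh12 by 0.86 (SE 0.118), Fgfr2 by 0.66 (SE 0.167), Eomes and Prl5a1. Lower were Synb by 2.66 (SE 0.156), Plac1 by 1.88 (SE 0.264), Cdh3, Psg21 and Esrrb.

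Gjb2, Pcdh12 and Fgfr2 were above background on all 4 liver arrays, and endothelial markers (6 of 6) and hepatocyte markers (10 of 11) rose in the same comparison. Their part in these differences was not tested. Eomes, Prl5a1, Synb, Plac1, Psg21 and Esrrb were below background on every array of both groups. Several of these calls rested on few arrays. Eomes did not pass without ED14.5 control replicate 1, 2 or 4 or liver control replicate 1 or 3 (adjusted p 0.0501 to 0.105). Prl5a1 did not without ED14.5 control replicate 2 or 3 or liver control replicate 3 or 4 (0.0505 to 0.0691). Cdh3 was lost without ED14.5 control replicate 3 (0.0593), and Psg21 without ED14.5 control replicate 2 (0.0605) or liver control replicate 1 (0.0510). Psg22, Psg19 and Prl7b1 passed only without liver control replicate 2 (0.0128), 3 (0.0425) and 4 (0.0491).

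**Figure D4:**
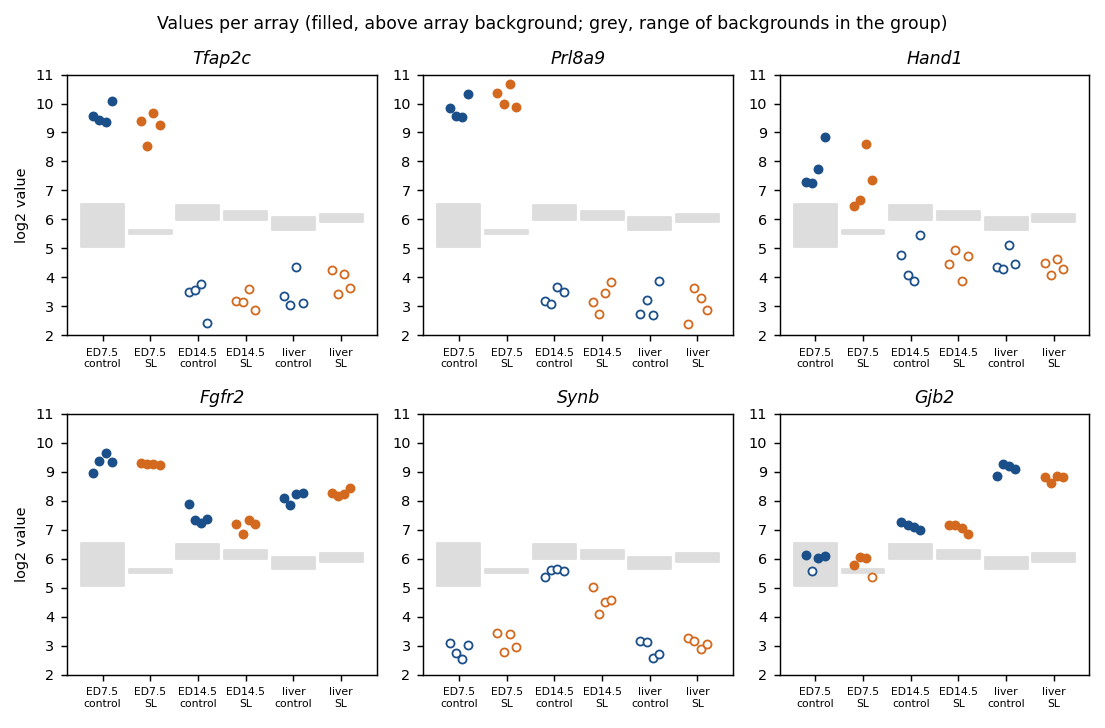
Log2 values of 6 members on every array (y axis) in the 6 groups (x axis), in blue for control and orange for SL, filled where above the background of the array, with grey bars for the range of backgrounds in a group. Tfap2c, Prl8a9 and Hand1 are above background only at ED7.5, Fgfr2 is above it in every group, Gjb2 is higher at each later stage, and Synb is highest in ED14.5 controls but below the grey bar there.

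The study's main question, whether grandoffspring of obese grandfathers differ from those of controls, gave no member past the threshold at any age. At ED7.5 none of the 33 members was called by limma (adjusted p, over all genes 0.00513% called). At ED14.5 none was called (0.0513% of all genes, 0.0308% higher and 0.0205% lower), and in liver none (0% of all genes). At an unadjusted p below 0.05 there were 2 members at ED7.5 (5.49% of all genes), 1 at ED14.5 (11.4%) and 2 in liver (7.91%). The median difference of the members between SL and control was -0.06, -0.04 and -0.02, and 12, 13 and 14 of the 33 were above 0. The 3 comparisons share no arrays with each other, but the comparisons between ages and with liver use the same arrays.

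At ED7.5 no member had arms without overlap (3.05% of all genes). The members with an unadjusted p below 0.05 were Rhox6 at -0.42 (SE 0.182) and Syna at -0.51 (SE 0.195), Rhox6 near background and Syna below it. Among the members above background on all 8 arrays the differences ran from -0.51 for Hand1 (SE 0.489, adjusted p = 0.970) to 0.41 for Prl8a9 (SE 0.219, adjusted p = 0.945). Plac1 stood at -0.44 (SE 0.482) and Tfap2c at -0.40 (SE 0.244). Tpbpa was at -0.51 (SE 0.274). Tead4 at 0.11 (SE 0.100) and Cdh3 at -0.18 (SE 0.102) had the narrower errors. Hand1, Plac1 and Prl5a1 had the largest standard errors of the 33 members, 0.482 to 0.495, and differences of the size seen were not detectable for them with 4 arrays a group.

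The classes at ED7.5 did not share a direction. The median difference was -0.05 for the stem cell class, -0.18 for the broad class, 0.10 for spongiotrophoblast and glycogen cells, -0.04 for giant cells and -0.08 for labyrinth. None of the further placental lists had a called gene. The median was -0.31 for the 17 prolactins that are not members, 14 of which were at or below 0, with the control peak on replicate 4 and the SL peak on replicate 3 both in that list. None of these medians was tested.

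At ED14.5 Synb was the member with the smallest p and the only member whose arms did not overlap (7.98% of all genes did not). The difference was -0.997 (SE 0.178, adjusted p = 0.0845, limma), with 5.38 the lowest control and 5.02 the highest SL value. Without 1 array at a time the difference ran from -1.15 to -0.84 and the adjusted p from 0.111 to 0.234. Under an intensity trend with a robust prior its adjusted p was 0.0237, and in a fit of all 24 arrays 0.0150. With the replicate number as a block it was 0.263. At ED7.5 the same difference was 0.29 (SE 0.183) and in liver 0.20 (SE 0.170), in the other direction.

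The difference of the SL effect between ED14.5 and ED7.5 was tested as an interaction, and no member was called (0.0769% of all genes, 0.0461% higher and 0.0308% lower). At an unadjusted p below 0.05 there was 1 member (6.92% of all genes), Synb, at -1.29 (SE 0.262, adjusted p = 0.0660, limma). That passed without ED14.5 SL replicate 1 (-1.45, adjusted p = 0.0293) and without ED7.5 SL replicate 2 (-1.41, 0.0404). Between liver and ED14.5 no member was called either (0.0256% of all genes), and 2 had an unadjusted p below 0.05 (10.6% of all genes): Synb at 1.19 (SE 0.262, adjusted p = 0.0993) and Fgfr2 at 0.47 (SE 0.211, adjusted p = 0.439). Without ED14.5 SL replicate 1 that of Synb passed, at 1.35 with an adjusted p of 0.0454. All Synb values lay below background, as above.

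For members above background at ED14.5 the differences between the arms were small beside their errors or within their overlap. Ets2 was at -0.15 (SE 0.118), Fgfr2 at -0.31 (SE 0.165), Rhox9 at -0.28 (SE 0.166) and Gjb2 at -0.07 (SE 0.110). Fgfr2 had 7.89, 7.33, 7.25 and 7.35 in controls and 7.20, 6.85, 7.34 and 7.18 in SL, so the arms overlapped and the highest control value was on the array with the highest background.

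In liver the members without overlap were Gjb2 and Prl5a1 (4.43% of all genes had none). Gjb2 had 8.87, 9.27, 9.20 and 9.10 in controls and 8.83, 8.61, 8.84 and 8.81 in SL, a difference of -0.34 (SE 0.133, adjusted p = 0.623). All 8 values were well above background. The hepatocyte list mean was 13.47 to 13.51 in controls and 13.48 to 13.51 in SL. Prl5a1 was at 3.65 to 4.42 in controls and 3.16 to 3.54 in SL, all below background, a difference of -0.67 (SE 0.189, adjusted p = 0.516).

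**Figure D5:**
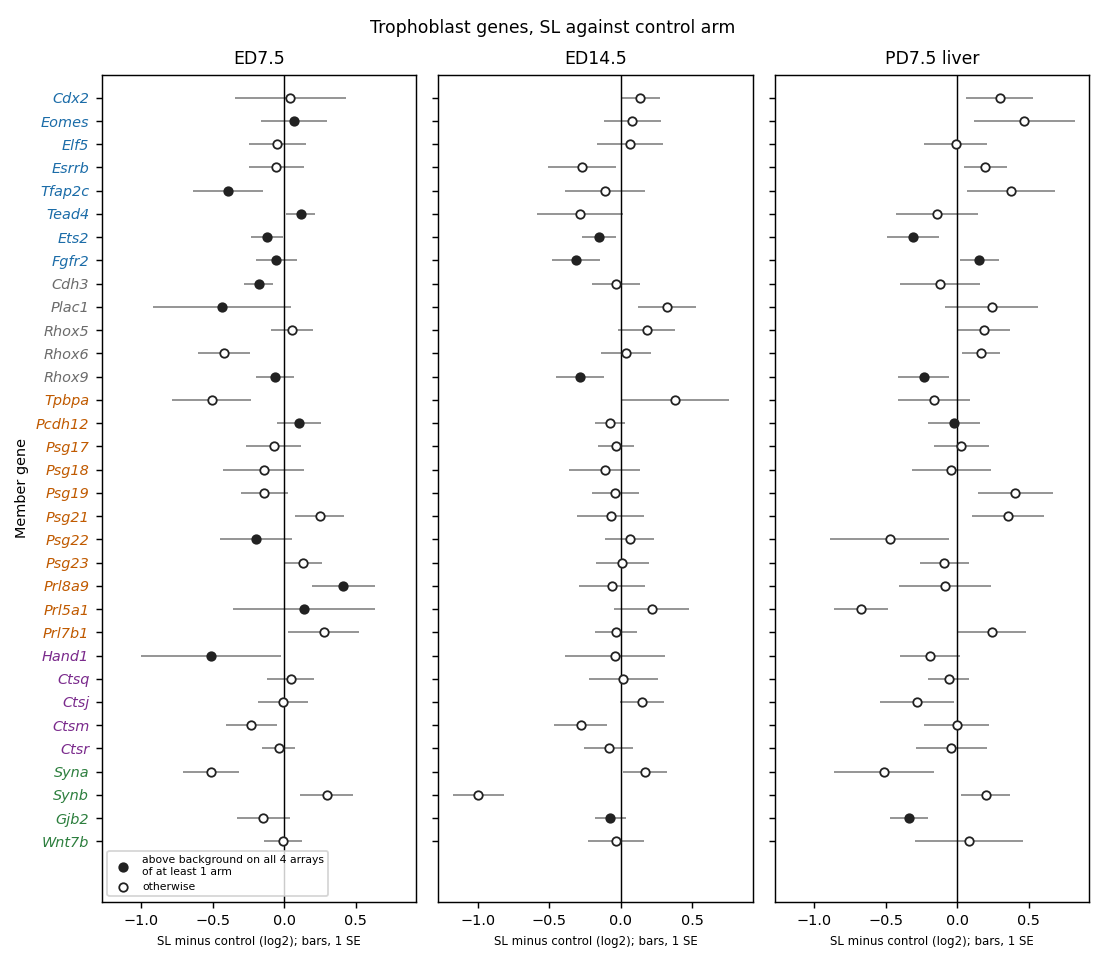
SL minus control on the log2 scale (x axis) with bars of 1 standard error for each member (y axis, coloured by class) at ED7.5, at ED14.5 and in liver; filled circles mark members above background on all 4 arrays of at least 1 arm. Few circles lie more than 0.5 from 0, with Syna, Tpbpa and Hand1 at -0.51 at ED7.5, Prl5a1 at -0.67 and Syna at -0.51 in liver, and Synb at -0.997 at ED14.5 the farthest from 0.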

How the data were processed

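Total RNA of 24 mouse samples was measured on Affymetrix arrays, 1 array per sample. The deposited log2 values came from RMA in the oligo package, per the submitters' processing notes. For the version, the build and a joint run of the arrays: not given in the sources used here. That the scale is log2 was read from the method and the range of values (0.802 to 14.07), and nothing was normalized again. Of 29129 probe sets, 19572 named 1 gene; for 55 genes with several, the brightest over all arrays was used. Each pair of groups was fitted apart in limma 3.58.1 (R 4.3.3), two-sided, with Benjamini-Hochberg adjustment over 19505 genes; interactions used all 24 arrays. The fit was tested on simulated data. Promoter windows were aligned with Biopython 1.88. The text names all members, and of other lists the 2 called genes with the largest age difference per direction. Further prolactins are named outside this rule, for their promoters or for their values on the ED7.5 arrays, after these were seen. Members and lists were chosen with earlier results of these data known. The alternatives were leaving out each array, an intensity trend with a robust prior, weights per array, 1 fit over the 24 arrays together, a replicate block, a filter on genes above background on at least 4 arrays, quantile normalization, the mean of a gene's probe sets, and the 90th percentile as background.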

Additional observations from a re-analysis of the deposited data

Results flagged for a closer look

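In each of the 198 sets of 4 arrays (33 members in 6 groups), the highest or lowest value was compared with the nearest other value by Dixon's ratio of gap to range at its 95% critical value. The ratio was above it in 14 sets, or 7.07%, and chance gives about 1 in 20. Psg22 was high on ED7.5 control replicate 4 (7.69, next 6.98) and on ED7.5 SL replicate 3 (7.65, next 6.77), the pair of arrays on which Hand1 and Plac1 also peaked. In liver control replicate 2 Psg22 was low, at 3.28 (next 4.88), below background. Ets2 was low on ED14.5 SL replicate 1 (8.43) and on liver SL replicate 2 (8.38). Gjb2 was low on ED7.5 control replicate 2 (5.57, below background), the array with the highest ED7.5 background, and on liver SL replicate 2 (8.61). Fgfr2 was high on ED14.5 control replicate 1 (7.89). The other 6 values lay below background: Cdh3 on liver SL replicate 4 (5.58), Rhox9 on ED14.5 SL replicate 4 (5.70), Psg17 on ED14.5 control replicate 3 (3.96), Ctsq on ED14.5 SL replicate 2 (4.04), Ctsj on liver control replicate 3 (3.66) and Wnt7b on ED14.5 SL replicate 3 (4.27).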

How the results depend on the processing

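No member difference that was called reversed its sign under any alternative, and the cause of the moves below was not tested except where the alternative tests fewer genes. The count of called members at ED14.5 for SL against control rose from 0 to 1 (Synb) with an intensity trend and robust prior and in the fit of all 24 arrays. Leaving out the genes not above background on at least 4 arrays took the called members from 21 to 13 for the control ages and from 10 to 3 for control liver against ED14.5, since fewer members were then tested. Counts over all genes moved more. For SL against control they were 3 (trend) and 12 (24 arrays) at ED7.5, in place of 1. At ED14.5 they were 283 (trend), 79 (24 arrays), 174 (filter) and 0 (replicate block) in place of 10, and 5 (24 arrays) in liver in place of 0. The interaction of ED14.5 with ED7.5 called 35, 5 and 27 genes under the trend, the block and the filter in place of 15, and that of liver with ED14.5 28, 3 and 19 in place of 5. Without 1 array, all genes called ran from 0 to 2 at ED7.5, 1 to 5 at ED14.5, 8 to 19 and 1 to 16 for the interactions, and called members from 19 to 22 for the control ages, 17 to 18 for the SL ages, 7 to 11 for liver against ED14.5 and 0 to 1 in the interactions. With the 90th percentile as background, members above it on every array numbered 6 in ED7.5 controls, 2 and 1 in ED14.5 control and SL, and 3 in liver SL, in place of 12, 4, 3 and 5. Same-numbered samples of the arms correlated at -0.17 to 0.12, so the numbers were not taken to pair them. The same number was nevertheless the best match for liver replicates 2, 3 and 4, for ED7.5 replicate 1 and for ED14.5 replicate 2. The replicate block changed the call of Psg19 (adjusted p = 0.0823) in the control ages and added Psg18 (0.0219) and Ctsm (0.0435) in SL. Of 447 class medians 18 moved by more than the spread. Under quantile normalization Pcdh12 (adjusted p = 0.0670) and Psg19 (0.102) were lost in the control ages and Elf5 (0.0630) in the SL ages. The trend and the fit of all 24 arrays lost Psg19 in the control ages (0.0687 and 0.0822) and added Psg18 in the SL ages (0.0331 and 0.0401). In the fit of all 24 arrays Psg21 (0.0665) was lost between the control ages, and Prl5a1 (0.125) and Esrrb (0.0683) between liver and ED14.5.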
